A study of Mus musculus with 20 samples.

Results

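Swiss 5 and Swiss 22 are clonal lines of immortalized mouse embryo fibroblasts, each 1 clone of the Swiss 3T3 parent, and their RNA was set side by side across all genes of a 3' oligonucleotide expression array. The comparison took the arrays titled as Swiss 5 and as Swiss 22, 3 of each line and 6 of the 20 arrays of the series. The labels class both lines as non-adipogenic, and the study set 3 such lines (Swiss 3, Swiss 5 and Swiss 22) against 4 preadipose lines (Swiss 19, Swiss 9, Swiss 8 and Swiss 2). Cells of all 7 lines were dividing when harvested, in DMEM with 10% bovine serum, a medium that does not induce differentiation, and no line received a treatment or carried a named allele. Whether the 3 arrays per clone stand for independent cultures is not in the labels, so p-values here measure only the spread between arrays, which may be technical. A difference between 2 clones is a difference between these clones and not between kinds of cell.

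Fibroblasts make and remodel the extracellular matrix, through fibrillar and microfibrillar collagens, the glycoproteins and proteoglycans that bind them, and the secreted proteases and inhibitors that set their turnover. Imprinted genes are read mainly from the allele of 1 parent, and several of them encode growth factors, receptors and adaptors of fetal growth or regulators of fat cell formation. Xist is the noncoding RNA that coats and silences an X chromosome in female cells. Sister clones of a parental strain can differ in any of these while they keep the same general cell type.

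For Mest and Mmp3, among the genes that differed most, the DNA upstream of the transcription start is shown. Mest, an imprinted gene with alternative promoters, is shown because its fold was the highest of all called genes and its 2 main annotated starts differ in CpG content. Mmp3 encodes stromelysin-1, a matrix protease whose promoter is a classical target of AP-1 factors, and is shown for that motif. Each run is the 250 bases before an annotated start in GRCm38.p6, printed 5' to 3'. The Mest windows are chr6:30733256-30733505 (+ strand, first start) and chr6:30737800-30738049 (+ strand, second start), with CpG dinucleotides in capitals. The Mmp3 window is chr9:7445572-7445821 (+ strand), with the AP-1 motif in capitals.
Mest first start: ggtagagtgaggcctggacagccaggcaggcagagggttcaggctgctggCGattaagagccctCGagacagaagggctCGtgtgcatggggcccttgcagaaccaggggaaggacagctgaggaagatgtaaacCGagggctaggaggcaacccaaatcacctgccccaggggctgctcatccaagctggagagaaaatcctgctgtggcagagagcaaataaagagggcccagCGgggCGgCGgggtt
Mest second start: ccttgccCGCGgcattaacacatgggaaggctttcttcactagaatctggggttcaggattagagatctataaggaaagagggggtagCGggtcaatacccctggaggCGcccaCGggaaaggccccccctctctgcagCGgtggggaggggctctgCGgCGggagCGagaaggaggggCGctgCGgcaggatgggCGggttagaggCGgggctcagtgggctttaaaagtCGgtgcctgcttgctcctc
Mmp3: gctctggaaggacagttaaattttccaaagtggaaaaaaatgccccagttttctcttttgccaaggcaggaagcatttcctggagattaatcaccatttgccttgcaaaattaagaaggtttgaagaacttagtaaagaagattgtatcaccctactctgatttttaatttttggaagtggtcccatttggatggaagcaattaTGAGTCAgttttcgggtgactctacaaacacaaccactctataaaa
The first Mest window held 7 CpG dinucleotides and the second 14, while the median over all 32851 windows of the same length was 6, with quartiles of 2 and 16. The AP-1 motif was searched as TGAGTCA or TGACTCA, which are the same site read on either strand. It was found in the Mmp3 window and in 4.46% of all windows. It was not found in those of Ctsk, a protease gene, and Slpi, a protease inhibitor gene, both described further on. The arrays do not say which start of Mest was in use, and a match describes letters only.

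Levels are given as normalized intensity, the array signal after the 20 arrays had been brought to a common distribution, and differences are given as Swiss 5 minus Swiss 22 on the log2(intensity + 32) scale, which understates the change of dim genes. All 8 fibroblast markers (Col1a1, Col1a2, Col3a1, Pdgfra, Thy1, Vim, Fn1 and Prrx1) were above the background of each of the 6 arrays. Their summed level was 14079 to 16322 in Swiss 5 and 17992 to 19190 in Swiss 22. Pecam1, Ptprc, Itgam, Cdh1, Snap25 and Myog, defining markers of endothelium, leukocytes, epithelium, neurons and muscle, were above background on no array, while Kdr, Csf1r, Epcam, Krt8, Tubb3 and Acta1, from the same marker sets, were above background on all 6. Sp7, Sox9 and Fabp4, from the osteoblast, chondrocyte and adipocyte sets, were above background on all 6 as well. Every measured member of those sets was above background on some array. Mean intensity before normalization was 96.1 to 103.4 in Swiss 5 and 135.1 to 149.8 in Swiss 22, while the level of the hybridization spikes overlapped before normalization. In normalized units the spikes were at 746 to 826 in Swiss 5 and 502 to 554 in Swiss 22, without overlap. The 18S ribosomal control was 153 to 173 in Swiss 5 and 44.6 to 62.7 in Swiss 22 in normalized units. Brightness, the normalized spike level and the 18S control therefore moved with the line, and their part in the differences was not tested.

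The lines were more alike than any other pair in the series by both measures taken. Line means differed by at least 1 log2 unit in 7 of 18193 genes, against 19 genes for the next closest pair, Swiss 8 and Swiss 9, and 465 for the most distant pair, Swiss 8 and Swiss 3. Against the third non-adipogenic line, Swiss 3, that number was 117 for Swiss 5 and 91 for Swiss 22. Mean intensity before normalization was 26.8 to 54.2 in Swiss 2, 8 and 9, 41.4 to 74.7 in Swiss 3 and 145 to 160 in Swiss 19. The part of brightness in this ranking, and in the levels of the 7 lines given further on, was not tested. Over the 9096 brighter genes the line means of Swiss 5 and Swiss 22 correlated at 0.988, a value across genes, which are not independent replicates. Arrays correlated at 0.986 to 0.987 within Swiss 5, at 0.991 within Swiss 22 and at 0.982 to 0.986 between them. The spread within Swiss 5 was wider, with a median SD over genes of 0.0999 log2 units, than within Swiss 22, with 0.0809.

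Of the 18193 genes, 188 (1.03%) passed an adjusted p of 0.05 in limma, 82 (0.451%) higher in Swiss 5 and 106 (0.583%) higher in Swiss 22. Most differences were small, with a median size of 0.52 log2 units among the former and 0.50 among the latter, against 0.08 over all genes. A log2 difference of at least 1 was reached by 5 of the former (0.0275%), Prkg2, Mest, U90926, Mmp3 and Samd5, and by 2 of the latter (0.011%), Xist and Dlk1. The 3 arrays of one line lay wholly above the 3 of the other in 3752 genes (20.6%), which included all 188 called. Of the 105 called genes with more than 1 probe set, 77 had the same sign on every one, and among those described further on Klf5, Pfkl and C1qb had 2 of 3 probe sets of the same sign. The number of calls rested on having all 6 arrays: it was 51 without Swiss 5 replicate 1, 20 without replicate 2 and 13 without replicate 3, and 6, 8 and 6 without Swiss 22 replicates 1, 2 and 3. It also moved with the scale: the share of calls that were higher in Swiss 5 was 43.6%, but 3.78% with arrays centred on their medians and 0.676% without normalization, where the median of all genes lay at -0.12 and -0.26.

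Some calls were much firmer than others. Of the 188 called genes, Prkg2, Mest, Mmp3 and Crabp1 passed the threshold in all 18 alternative analyses, with adjusted p-values of at most 0.0429 in limma. Cyba and Hspb1 passed in all 6 analyses that left out 1 array, and the other 182 lost the call in at least 1 of those 6. Of the 55 called genes named by the rule given with the processing, 27 kept it without Swiss 5 replicate 1, 17 without replicate 2 and 11 without replicate 3, and 6, 8 and 6 kept it without Swiss 22 replicates 1, 2 and 3. The sign of all 55 was the same in each of the 6, and their log2 differences moved by at most 1.23 times. With arrays centred on their medians, Gask1b, Tnfrsf12a, Gdf10, Id1, Grem1, Twist2 and Hoxd8 lost the call, and without normalization Mmp9, Klf5 and Slpi lost it too. When probe sets were averaged, Samd5, Igf2, Lama4, Klf5, Tnfaip3, Col3a1, Mgst1, Trp53inp1, Ccng1 and C1qb lost it.

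**Figure D1:**
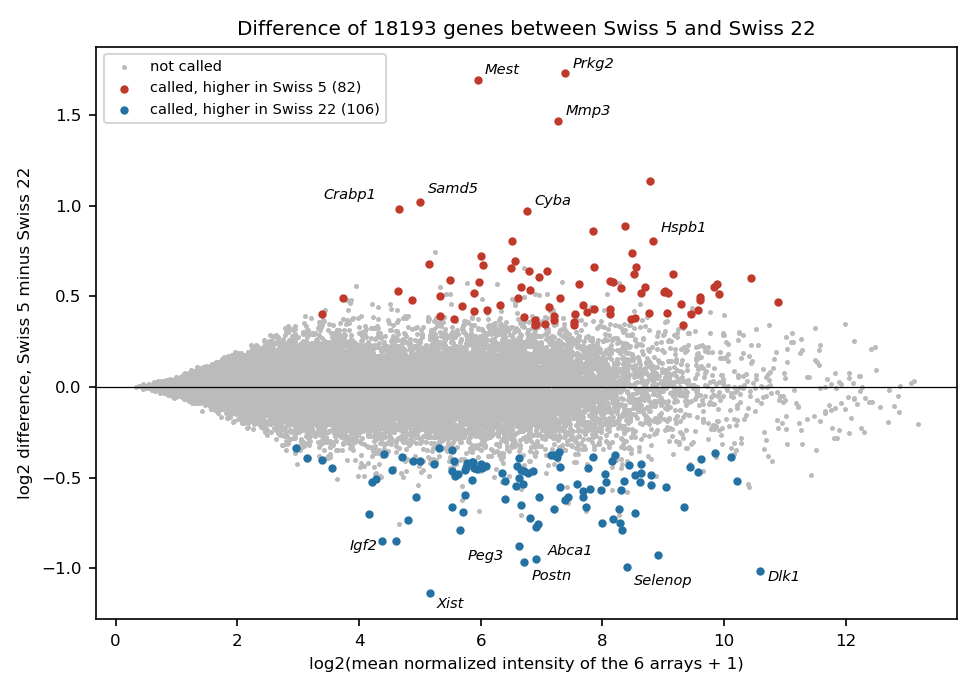
Difference between the lines (log2, Swiss 5 minus Swiss 22, vertical) against level (log2 of mean normalized intensity + 1, horizontal) for 18193 genes, 1 point each, with the 82 and 106 called genes in colour. Prkg2, Mest and Mmp3 stand above the rest at 1.73, 1.69 and 1.47, and the lowest points are Xist at -1.14 and Dlk1 at -1.02.

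Mest encodes a protein of the alpha/beta hydrolase fold, is expressed from the paternal allele in mice and is known to be induced in expanding fat tissue. Its normalized intensity was 116, 104 and 108 on the Swiss 5 arrays and 14.6, 12.8 and 8.06 on the Swiss 22 arrays. The groups were far apart, with the lowest Swiss 5 array above every Swiss 22 array. The mean was 109.6 ± 6.25 (SD, n = 3) against 11.8 ± 3.38 (SD, n = 3), 9.28-fold higher in Swiss 5, with a log2 difference of 1.69 ± 0.076 (SE) and an adjusted p of 0.000236 in limma. Among the other lines the mean ran from 17.3 in Swiss 9 to 34.3 in Swiss 2 in the preadipose lines and was 224 in Swiss 3. Swiss 22 was thus the lowest of the 7 lines, and the other non-adipogenic lines were the highest.

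Prkg2 encodes cGMP-dependent protein kinase II, a membrane-bound kinase of the natriuretic peptide and nitric oxide pathway. Its level was 242, 273 and 304 in Swiss 5 and 65.8, 55.5 and 57.7 in Swiss 22, without overlap. The means of 273 ± 31.3 and 59.7 ± 5.42 (SD, n = 3 each) gave a fold of 4.58 (log2 difference 1.73 ± 0.089 SE, limma adjusted p = 0.000444). All 3 of its probe sets had the same sign, with the smallest difference at 0.37 (limma adjusted p = 0.0983). Swiss 22 was below the other 6 lines, and Swiss 9 was the highest, at 599.9.

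Mmp3, the stromelysin whose promoter is printed above, was at 234, 253 and 235 in Swiss 5 and at 71.2, 67.1 and 61.7 in Swiss 22. Its mean was 241 ± 10.4 against 66.7 ± 4.78 (SD, n = 3 each), 3.61-fold higher in Swiss 5 (log2 difference 1.47 ± 0.065 SE, limma adjusted p = 0.000236). Swiss 5 was the highest of the 7 lines, followed by Swiss 3 at 199. Crabp1, which binds retinoic acid in the cytoplasm, was at 44.3, 39.5 and 44.7 in Swiss 5 and at 5.59, 5.82 and 6.09 in Swiss 22, where 1 of 3 arrays was above background. It was at least 5.73-fold higher in Swiss 5 (log2 difference 0.98 ± 0.058 SE, limma adjusted p = 0.000984). Samd5, which encodes a SAM domain protein, was at 43.8, 56.0 and 57.9 against 7.07, 10.0 and 11.8, at least 5.07-fold higher (adjusted p = 0.00692). Its other probe set was at 0.10 (limma adjusted p = 0.897), and the call was lost when probe sets were averaged. Of these genes, Mmp3, Crabp1 and Samd5 had their highest line mean of the series in Swiss 5.

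Cyba, the p22phox subunit of NADPH oxidases, was at 155, 138 and 165 in Swiss 5 and at 59.2, 62.0 and 64.5 in Swiss 22, a 2.46-fold excess (0.97 ± 0.071 SE on the log2 scale, limma adjusted p = 0.00353). It separated the classes of line as well. Its mean was 234 in Swiss 3 and between 0.462 and 2.95 in the preadipose lines, below the lowest background of their arrays (5.64). Swiss 22 thus had the lowest level of the non-adipogenic lines and still a level above all preadipose ones. Hspb1, the small heat shock protein HSP27, was at 570.4, 612 and 586 in Swiss 5 and at 312, 328 and 331 in Swiss 22, a 1.82-fold excess (0.81 ± 0.060 SE on the log2 scale, adjusted p = 0.00353). The remaining genes of the 15 with the largest excess in Swiss 5 were Ccn1, a matricellular target of YAP and serum response factor (1.98-fold), Ptgs2, the inducible prostaglandin synthase (2.15-fold), Gask1b (1.75-fold), Brinp3 (2.61-fold), Fap, a membrane serine protease of activated fibroblasts (2.04-fold), Tnfrsf12a, the receptor of TWEAK (1.66-fold), Ctsk and Mmp9. Their log2 differences ran from 0.66 to 0.86 and their adjusted p-values from 0.0106 to 0.0295. U90926 (1.13, adjusted p = 0.0117) and AY036118 (0.89, adjusted p = 0.0222), transcripts known by accession-type names, would have ranked among them.

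**Figure D2:**
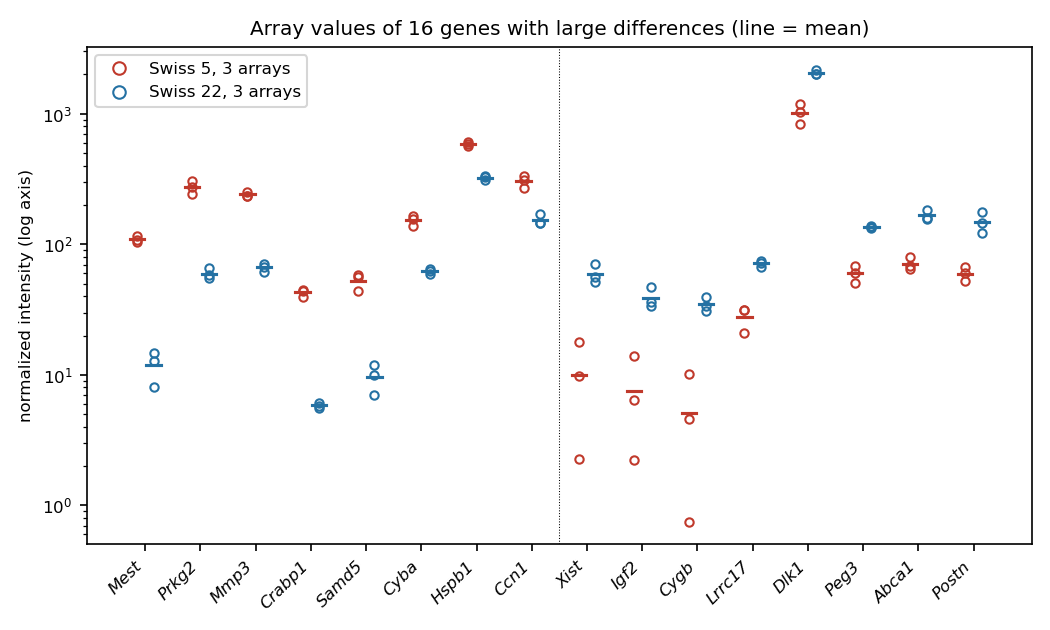
Normalized intensity of 16 genes on each of the 6 arrays (log axis), Swiss 5 and Swiss 22 side by side, 1 circle per array and a bar at the mean of 3. The arrays of the lines do not overlap in any of the 16, and Mest is at 109.6 in Swiss 5 and 11.8 in Swiss 22.

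In the other direction, Xist had the largest log2 difference. Its level was 70.5, 56.4 and 51.7 in Swiss 22 and 9.80, 17.8 and 2.26 in Swiss 5, where 2 of 3 arrays were above background. It was at least 5.31-fold higher in Swiss 22 (log2 difference -1.14 ± 0.139 SE, limma adjusted p = 0.0182). All 3 probe sets had the same sign, but 1 of them was at only -0.09 (limma adjusted p = 0.783). Swiss 22 stood apart from every other line, as the means of the other 5 ran from 10.4 to 16.5. The Y-linked genes on the array, Kdm5d, Eif2s3y and Uty, did not pass the test. Of 7 sex-linked genes measured, Xist among them, 2 were above background on all 3 arrays of the line where they were higher. For a gene near background the lack of a call does not show equal expression.

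Dlk1 encodes preadipocyte factor 1, a transmembrane inhibitor of fat cell differentiation made from the paternal allele. Its level was 2002, 2179 and 2026 in Swiss 22 and 1196, 1023 and 828 in Swiss 5. The means of 2069 ± 96.0 and 1015 ± 184 (SD, n = 3 each) differed 2.04-fold (log2 difference -1.02 ± 0.122 SE, limma adjusted p = 0.0174), and Swiss 5 had the lowest mean of the 7 lines. The other Dlk1 probe set was at -0.15 (limma adjusted p = 0.542). Selenop, the plasma selenium carrier (2.12-fold, adjusted p = 0.0350), Abca1, the cholesterol efflux pump (2.35-fold, adjusted p = 0.00949), and Lcn2, the siderophore-binding lipocalin (1.99-fold, adjusted p = 0.0182), were also higher in Swiss 22. Abca1 was at 159, 184 and 156 in Swiss 22 and at 80.4, 64.3 and 67.6 in Swiss 5. Cygb, the fibroblast globin, was at 30.9, 39.5 and 33.4 in Swiss 22 and above background on 1 of 3 Swiss 5 arrays, at least 4.2-fold higher (adjusted p = 0.0164). Lrrc17, a secreted leucine-rich repeat protein, was 2.56-fold higher (adjusted p = 0.0156), and Btg1, an antiproliferative factor, 1.82-fold (adjusted p = 0.0350).

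Imprinted genes were among the largest differences in both directions. Of the 31 measured, 5 were called (16.1%, against 1.03% of all genes), 1 higher in Swiss 5 and 4 higher in Swiss 22. Besides Mest and Dlk1 these were Peg3, a zinc finger protein expressed from the paternal allele, Igf2, the fetal growth factor, and Grb10, an adaptor that restrains insulin and IGF receptor signalling. Peg3 was at 139, 136 and 134 in Swiss 22 and at 60.0, 50.9 and 68.6 in Swiss 5 (2.28-fold, log2 difference -0.88, limma adjusted p = 0.00949), with 3 of its 5 probe sets of the same sign. Igf2 was at 33.7, 47.1 and 36.4 in Swiss 22 and at 14.1, 2.21 and 6.36 in Swiss 5, where 2 of 3 arrays were above background, at least 4.04-fold higher in Swiss 22 (adjusted p = 0.0266). Its other probe set was at -0.02 (limma adjusted p = 0.978), and the call was lost when probe sets were averaged. Grb10 was at 468, 432 and 406 in Swiss 22 and at 282, 316 and 307 in Swiss 5 (1.44-fold, adjusted p = 0.0295). The arrays of the lines did not overlap for any of these 5 genes, and in 4 of the 5 the level was higher in Swiss 22.

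Genes of the Dlk1 cluster other than Dlk1 lay lower in Swiss 5 without passing the test. The noncoding RNA Rian was at a mean of 155 in Swiss 5 and 267 in Swiss 22 (log2 difference -0.68, limma adjusted p = 0.0554), and Meg3 was at 205 and 255 (-0.28, adjusted p = 0.179). These are read from the maternal allele, whereas Dlk1 is read from the paternal one. The median over the 31 imprinted genes was -0.08, against 0.00 over all genes, and 12 of them had non-overlapping arrays, 3 higher in Swiss 5 (9.89% of all genes) and 9 higher in Swiss 22 (10.7% of all genes). Igf2r, the receptor that clears Igf2, was at 127 in Swiss 5 and 124 in Swiss 22 (adjusted p = 0.921).

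**Figure D3:**
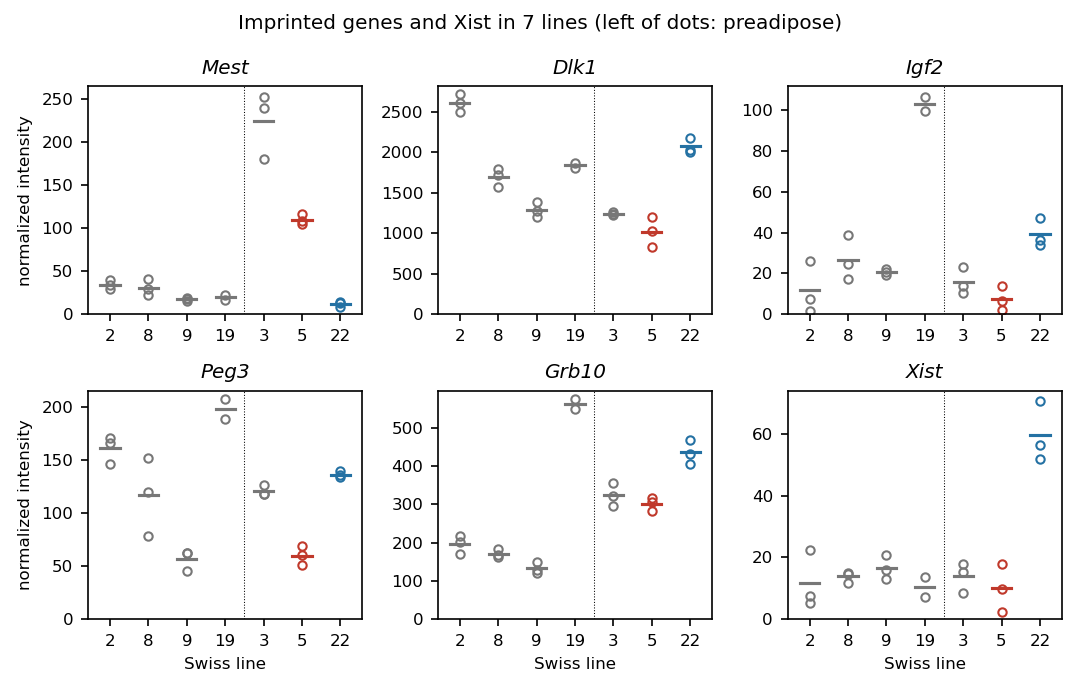
Normalized intensity (linear axis from 0) of Mest, Dlk1, Igf2, Peg3, Grb10 and Xist on each array of the 7 lines, with the 4 preadipose lines left of the dotted line and bars at the mean of a line. Xist was at 59.6 in Swiss 22 and below 17 in the others, Mest was lowest in Swiss 22, and Igf2, Peg3 and Grb10 were highest in Swiss 19.

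Collagen genes were mostly lower in Swiss 5. Of 22 measured, 0 were called higher in Swiss 5 and 4 higher in Swiss 22, against 0.451% and 0.583% of all genes. A negative difference was found in 16, and the median was -0.23. Called were Col6a2 (223 ± 13.8 against 399 ± 61.3, 1.79-fold, limma adjusted p = 0.0266) and Col6a1 (497 ± 53.5 against 804 ± 81.7, 1.62-fold, adjusted p = 0.0294), which encode chains of the beaded microfibrils around cells, the basement membrane chain gene Col4a5 (1.56-fold, adjusted p = 0.0164) and the fibrillar Col3a1 (1.44-fold, adjusted p = 0.0467). The third chain of that microfibril, Col6a3, lay at 60.9 and 100.3 (log2 difference -0.52, adjusted p = 0.0893). The main fibrillar chains, Col1a1 and Col1a2, were at 3221 and 3324 in Swiss 5 and at 3755 and 4044 in Swiss 22 without passing the test (adjusted p = 0.367 and 0.105). Col12a1, of a collagen that binds fibril surfaces, ran the other way, at 134 in Swiss 5 and 72.9 in Swiss 22, also without passing (0.65, adjusted p = 0.0712).

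Of 51 matrix glycoproteins and proteoglycans, 0 were called higher in Swiss 5 and 6 higher in Swiss 22. The called members made up 11.8% of the list, against 1.03% of all genes. There were 35 negative differences, and the median was -0.09. Postn, periostin, had the largest difference, at 123, 176 and 146 in Swiss 22 and 66.4, 52.4 and 60.1 in Swiss 5 (2.48-fold, limma adjusted p = 0.0164). Lama4, a laminin chain of basement membranes (1.93-fold, adjusted p = 0.0309), Fbln1, fibulin-1 (1.69-fold, adjusted p = 0.0467), and Ltbp2, a microfibril protein related to the binders of latent TGF-beta (1.49-fold, adjusted p = 0.0313), were called too, as were Lum (-0.51) and Mgp (-0.50). Dcn, decorin, was at 1094 in Swiss 5 and 1624 in Swiss 22 (adjusted p = 0.0618). In a list of 18 genes of fibroblast identity, 27.8% were called, against 1.03% of all genes. The called members higher in Swiss 22 were Postn, Fbln1, Col3a1 and Lum. Twist2, a mesenchymal transcription factor, was higher in Swiss 5 (700.0 ± 24.5 against 443 ± 11.4, limma adjusted p = 0.0103). The log2 difference of Twist2 was 0.20 with arrays centred on their medians (limma adjusted p = 0.143) and 0.07 without normalization (adjusted p = 0.618), and the call was lost in both. The medians of the collagen, matrix and fibroblast lists were negative in all 18 alternative analyses.

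Secreted proteases showed the opposite direction among their called members. Of 31 genes of matrix proteases and their inhibitors, 4 were called higher in Swiss 5 and 1 higher in Swiss 22. Over all genes the shares called were 0.451% and 0.583%. The 4 were Mmp3, Ctsk, Mmp9 and Slpi, and the 1 was Timp3. The list median was 0.03, -0.31 with arrays centred on their medians and -0.44 without normalization. In the last 2 settings the median of all genes was -0.12 and -0.26. Ctsk, cathepsin K, a collagen-degrading protease, was at 91.6, 86.6 and 81.9 in Swiss 5 and at 36.2, 46.7 and 37.2 in Swiss 22 (2.17-fold, limma adjusted p = 0.0124). Mmp9, gelatinase B, was at 142, 132 and 98.8 against 65.2, 64.9 and 61.5 (1.95-fold, adjusted p = 0.0295). Slpi, which inhibits leukocyte elastase and so opposes proteolysis, was at 148, 134 and 144 against 78.0, 79.6 and 80.2 (1.79-fold, adjusted p = 0.00956). Timp3, a matrix-bound inhibitor of metalloproteinases, had a log2 difference of -0.62 (adjusted p = 0.0164). Mmp2, Mmp14 and Timp1 differed by at most 0.14 log2 units and did not pass.

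**Figure D4:**
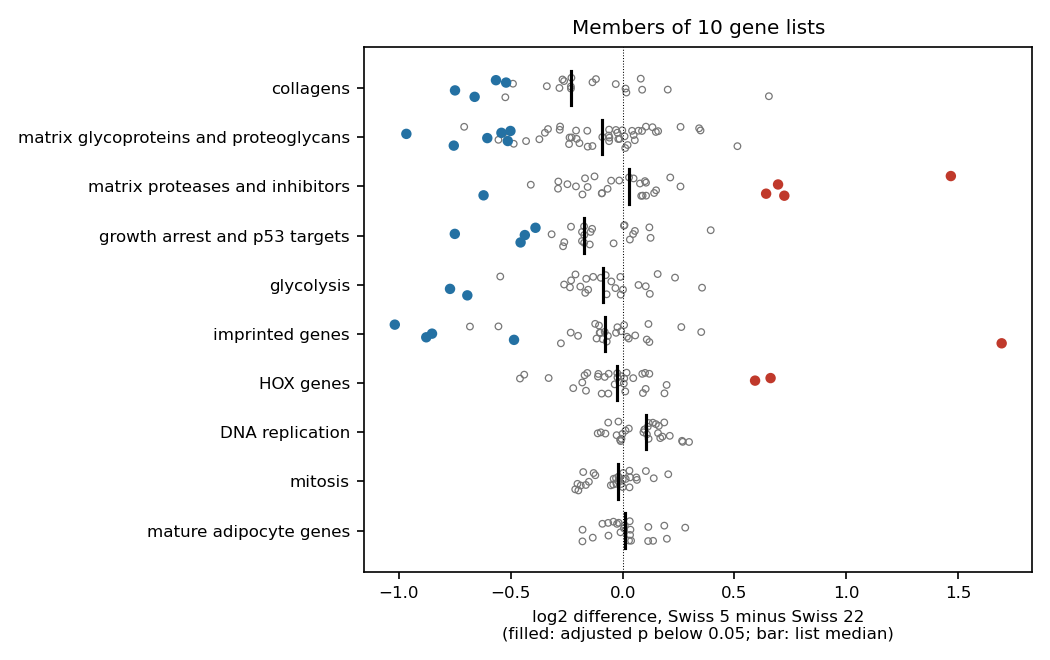
Log2 difference (Swiss 5 minus Swiss 22, horizontal) of every measured member of 10 gene lists, 1 circle per gene, filled where limma's adjusted p was below 0.05, with a bar at the median of the list. The filled circles of the collagen and matrix lists lie below 0, 4 of the 5 of the protease list lie above 0, and the DNA replication, mitosis and mature adipocyte lists have no filled circle.

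Genes that mark slowed growth or p53 activity were lower in Swiss 5 where they were called. The median of the 25 listed was -0.17, with 8 differences positive and 17 negative, and 16% were called, against 1.03% of all genes. Of the 25, 0 were called higher in Swiss 5 and 4 higher in Swiss 22. These were Gas6, a secreted ligand of TAM receptors first found as a growth arrest gene (1.80-fold, limma adjusted p = 0.0164), Cdkn1b, the cell cycle inhibitor p27 (79.6 ± 2.96 against 121 ± 2.46, 1.52-fold, adjusted p = 0.0182), Trp53inp1 (1.5-fold, adjusted p = 0.0292, with 1 of 2 probe sets of the same sign) and Ccng1 (1.32-fold, adjusted p = 0.0294). The growth-linked lists had no call by this normalization. Of 30 DNA replication genes 20 were positive with a median of 0.10. That median turned to -0.19 with arrays centred on their medians and to -0.32 without normalization. The median of all genes was itself -0.12 and -0.26 there, and relative to it the replication median was -0.065 in both. Of 29 mitosis genes 12 were positive with a median of -0.02, which became -0.42 with centring and -0.56 without normalization. Relative to all genes the mitosis median ran from -0.30 to 0.01 over the 18 alternative analyses. Without normalization 28 of the 29 were called, against 7249 of all 18193 genes. Pcna, the sliding clamp of replication, had a log2 difference of 0.30 (adjusted p = 0.0834). At an unadjusted p under 0.05, limma passed 7 of the 30 replication genes and 5 of the 29 mitosis genes, against 2792 of all genes.

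Of 25 adipogenic and 29 anti-adipogenic regulators, 1 and 2 were called, against 1.03% of all genes, and 13 and 8 were at an unadjusted p under 0.05 in limma, against 2792 of 18193. Without normalization 15 and 19 were called, against 7249 of all 18193 genes in that setting. Pparg, the master regulator of adipocyte genes, was at 19.2, 13.3 and 23.7 in Swiss 5 and 16, 21.7 and 19.6 in Swiss 22, an overlap of the arrays (log2 difference -0.01 ± 0.089 SE, limma adjusted p = 0.965). Cebpa, its partner factor, was at 14.9, 21.1 and 10.7 in Swiss 5 and 29.2, 38.4 and 37.7 in Swiss 22, without overlap but not past the threshold (-0.50 ± 0.096 SE, adjusted p = 0.0606). Cebpa passed in 5 of the 18 alternative analyses, with log2 differences from -1.12 to -0.20 over the 18 and a smallest adjusted p of 0.00149. Zfp423, a zinc finger regulator of preadipocyte commitment, was not above background on any of the 6 arrays, and no fold is given. Pdgfra, the growth factor receptor of mesenchymal progenitors, was at 1489 ± 189 in Swiss 5 and 1825 ± 64.1 in Swiss 22 (-0.29 ± 0.096 SE, adjusted p = 0.196). Pdgfra passed in 2 of the 18, with arrays centred on their medians and without normalization, with log2 differences from -0.87 to -0.18 over the 18 and a smallest adjusted p of 0.0019.

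Of 25 adipogenic regulators 1 was called, Klf5, higher in Swiss 5 (80.4 ± 7.37 against 43.4 ± 5.53, 1.86-fold, limma adjusted p = 0.0264), and of 29 anti-adipogenic regulators 2, Dlk1 and the zinc finger repressor Zfp521 (1.76-fold, adjusted p = 0.0295), both higher in Swiss 22. Of 23 genes of mature adipocytes limma called 0 (2 at an unadjusted p under 0.05, against 2792 of all 18193), and their median was 0.01. Fabp4, the fatty acid binding protein of fat cells, was above background on all 6 arrays with a log2 difference of 0.28 (adjusted p = 0.139).

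Among signalling and patterning lists, the BMP and TGF-beta pathway had 3 of 39 genes called (7.69%, against 1.03% of all genes), all higher in Swiss 5. Gdf10, a secreted member of the family, was at 448 ± 25 against 279.5 ± 9.50 (1.60-fold, limma adjusted p = 0.0124). Its log2 difference was 0.21 with arrays centred on their medians (adjusted p = 0.203) and 0.07 without normalization (adjusted p = 0.66), and the call was lost in both. The BMP target Id1 (1.46-fold, adjusted p = 0.0388) and the BMP antagonist Grem1 (1.43-fold, adjusted p = 0.0199) were called by this normalization, while their log2 differences were 0.09 and 0.06 with centring and -0.04 and -0.07 without normalization. Of 33 HOX genes 2 were called (6.06%, against 1.03% of all genes). They were the neighbours Hoxd8 (293, 284 and 301 against 180, 166 and 174, 1.69-fold, limma adjusted p = 0.00949) and Hoxd9 (53.9, 61.0 and 64.3 against 32, 29.7 and 24.9, 2.07-fold, adjusted p = 0.0182). Hoxd8 lost its call, at 0.28 with centring and 0.15 without normalization (adjusted p = 0.058 and 0.272). Their neighbours Hoxd10, at 0.19, and Hoxd11, at 0.01, did not pass. Of 41 Wnt genes and 26 Notch and Hedgehog genes, limma called 0 (7 and 4 at an unadjusted p under 0.05, against 2792 of all 18193).

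Other lists had at most 2 called members each, while 1.03% of all genes were called. Pfkl, the liver-type phosphofructokinase (1.69-fold, limma adjusted p = 0.0164), and Bnip3, a mitophagy receptor induced by hypoxia (2.00-fold, adjusted p = 0.0106), were higher in Swiss 22 among 26 genes of glycolysis and hypoxia response, whose median was -0.09. Also higher in Swiss 22 were Junb, an AP-1 subunit (1.59-fold, adjusted p = 0.0264), Mgst1, a membrane glutathione transferase (1.40-fold, adjusted p = 0.0285), Tnfaip3, a brake on NF-kappaB (1.57-fold, adjusted p = 0.0285), Ebp, a sterol isomerase (1.38-fold, adjusted p = 0.0417), and Gbp2, an interferon-induced GTPase (1.60-fold, adjusted p = 0.0467). The other Mgst1 probe set was at -0.007 (limma adjusted p = 0.988). Of 20 macrophage and leukocyte markers 1 was called, C1qb, a complement subunit that was above background on no Swiss 5 array and at 15.3, 14.7 and 10.0 in Swiss 22 (at least 2.07-fold, adjusted p = 0.0491), while Ptprc and Itgam were above background on no array and Csf1r on all 6. Of the 20, 9 were above background on all 3 arrays of the line where they were higher. The summed level of those 20 markers was 222 to 267 in Swiss 5 and 242 to 254 in Swiss 22. Endothelial, epithelial, neural, skeletal muscle, pericyte, and osteoblast and chondrocyte markers had 0 calls in limma of 18, 17, 17, 23, 16 and 19, with 2, 1, 0, 0, 1 and 1 at an unadjusted p under 0.05. Surface markers of mesenchymal progenitors, integrins and cadherins, and ATF4 targets had 0 calls of 19, 27 and 27, with 7, 4 and 12 at an unadjusted p under 0.05. Over all genes 2792 of 18193 were at an unadjusted p under 0.05 in limma.

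Called genes were set beside the other 5 lines as a description. Of the 82 genes higher in Swiss 5, the mean of Swiss 5 alone lay outside the range of the other lines in 25, that of Swiss 22 alone in 21, both in 5 and neither in 31. Of the 106 genes higher in Swiss 22, Swiss 5 alone lay outside in 23, Swiss 22 alone in 29, both in 7 and neither in 47. Over all genes these shares were 14.1% for Swiss 5 alone, 14.6% for Swiss 22 alone, 12% for both and 59.3% for neither. The called genes were picked for a difference between Swiss 5 and Swiss 22 on the same arrays, which by itself changes these shares. Setting them beside all genes is therefore not a test. Crabp1 and Samd5 are cases where Swiss 5 alone was outside, Prkg2 and Mest cases where Swiss 22 alone was.

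The differences were not spread evenly over the chromosomes. Of 13119 genes above background on at least 3 of the 6 arrays and placed by the GRCm38.p6 gene table, 186 were called. The share with a positive difference was 48.1%. On chromosome 14 it was 69.2% of 445 genes, with a median of 0.07 log2 units and 11 genes called higher in Swiss 5 against 0 higher in Swiss 22, among them Klf5, Gdf10, Gch1, Psmb5, Prmt5 and Clu. Chromosome 2 had 60.5% of 1052 genes positive with 17 calls against 2, and chromosome 5 had 58.7% of 859 with 12 against 3. The X chromosome ran the other way, with 34.6% of 416 genes positive, a median of -0.06 and 0 calls against 8, which were Xist, Smarca1, Tceal1, Col4a5, Tspan6, Rab9, Sh3bgrl and Ebp. Chromosome 12, which carries the Dlk1 cluster, had 35.2% of 457 genes positive, with 1 call against 4. On each of these 5 chromosomes the median deviation of every Swiss 5 array lay on the same side of every Swiss 22 array, as it did on 17 of 20 chromosomes, and an exact two-sided permutation test over the arrays cannot go below p = 0.10 with 3 against 3. Relative to all placed genes, the medians of these 5 chromosomes kept their sign in all 18 alternative analyses, but their sizes moved. They ran from 0.03 to 0.15 on chromosome 14, 0.02 to 0.09 on chromosome 2, 0.02 to 0.08 on chromosome 5, -0.09 to -0.02 on chromosome 12 and -0.10 to -0.02 on the X chromosome, and moved beyond the spread between arrays in 12, 8, 6, 8 and 6 of the 18. The 5 chromosomes were picked out after their values had been seen. Chromosome 10, not among them, had 37.7% of 636 genes positive, with 8 called higher in Swiss 5 and 11 higher in Swiss 22.

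Within chromosomes, the median of 15 neighbouring genes lay between -0.11 and 0.12 in the middle 95% of windows. The lowest was -0.25, on chromosome 12 from Trmt61a to Ahnak2, with 13 of 15 genes negative, led by Ahnak2 (-0.62, called), Inf2 (-0.49), Akt1 (-0.30) and Siva1 (-0.30). The highest was 0.23, on chromosome 10 from Myrfl to Mdm1, with 12 of 15 positive, led by Nup107 (0.55, called), Yeats4 (0.41), Rab3ip (0.40, called) and Mdm2 (0.39). On chromosome 14, from Gnpnat1 to Fbxo34, the median was 0.21, with 13 of 15 positive, led by Gch1 (0.53, called), Dlgap5 (0.33) and Bmp4 (0.31). These runs were picked for their extreme medians and are given as a description.

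**Figure D5:**
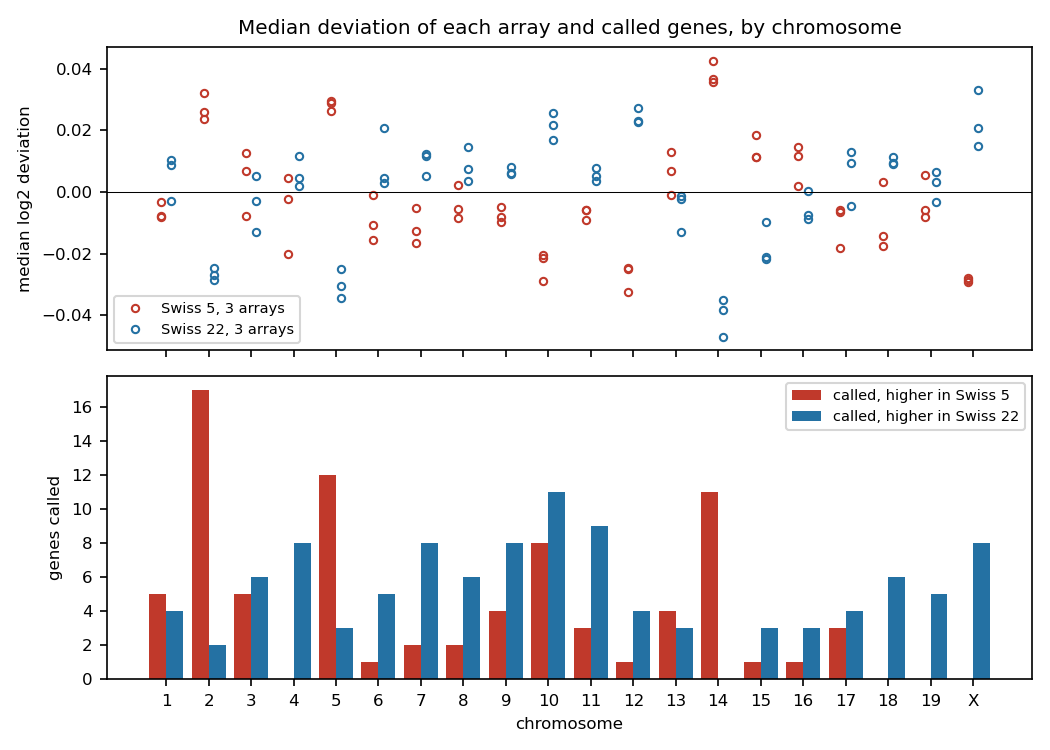
Upper panel: median log2 deviation from the gene means (vertical) of the placed genes of each chromosome, 1 circle per array of Swiss 5 and Swiss 22. Lower panel: called genes per chromosome in each direction, with 11 against 0 on chromosome 14, 17 against 2 on chromosome 2 and 0 against 8 on the X chromosome.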

How the data were processed

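Per the labels' protocols, total RNA was primed with oligo-dT and amplified into biotinylated RNA, and each sample had its own array. The deposited table held linear intensity values of 45101 probe sets, 64 of them controls, for 20 arrays; how the authors summarized and scaled them is not given in the sources used here. Values were taken as log2(intensity + 32) and quantile-normalized over the 20 arrays. For each gene the brightest probe set with 1 symbol was kept, by its mean over the 20 arrays, giving 18193 genes, and 9160 probe sets were not named here. Normalized intensity is the normalized log2 value turned back to the linear scale minus the pseudocount of 32. Background is the 95th percentile of 27 unspiked bacterial controls of an array. Folds are ratios of line means, written as at least that large where arrays of the lower line were not above background and were set to it.

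Swiss 5 was set against Swiss 22 on the 6 arrays with lmFit and eBayes of limma 3.58.1 (R 4.3.3), p-values adjusted over all genes by Benjamini-Hochberg and a threshold of 0.05. Tested on simulated data, this recovered 100 of 100 genes with a log2 difference of 1 and 89 of 100 with 0.5, with 7 false calls. The simulation drew independent normal noise with the variances estimated by eBayes and held no shift in brightness between lines. It checks the fit and does not give the power or false calls for the real arrays. Of 1030 entries in 35 gene lists, 964 were measured, 10 of them through a synonym. Genes were named by rule: the 15 largest called differences in each direction without overlap of the arrays and with the higher line above background, passing over accession-type names; up to 4 called members of each list; Pparg, Cebpa, Zfp423 and Pdgfra; and members of described runs. Genes given outside it (Lum, Mgp, Timp3, the X-linked and chromosome 14 genes, and members given as not called) were chosen after their values were seen. The members and lists were chosen with earlier results of these data known. Replicate numbers did not pair the arrays: deviations of arrays with the same number correlated at -0.034 to 0.015. The number of arrays limits the precision. Alternatives covered the normalization, pseudocount, dim-gene filter, probe set rule, samples in the fit, variance prior, spike level, replicate block and each array left out. Promoter sequences are RefSeq's.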

Additional observations from a re-analysis of the deposited data

How the results depend on the processing

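The share of genes called moved with the processing, while the sign of the 188 calls was kept in every alternative except centring on medians (176 kept) and no normalization (154 kept). Of the genes tested, limma called 0.451% higher in Swiss 5 and 0.583% higher in Swiss 22 in the main analysis. These shares were 0.258% and 0.319% with quantile normalization over the 6 arrays, 0.945% and 24.1% with arrays centred on medians, 0.269% and 39.6% without normalization, 0.022% and 0% with scaling before the pseudocount, 0.033% and 0% with a pseudocount of 8, and 1.62% and 1.91% with a larger one than the main 32. They were 1.05% and 1.42% with the filter on dim genes and 0.539% and 0.726% with the mean of probe sets. With all 20 arrays in the fit they were 0.704% and 0.852%, and with a trend in the prior 1.13% and 1.43%. With the spike level as a covariate they were 0.297% and 0.379%. Where no gene was called higher in Swiss 22, those at an unadjusted p under 0.05 in either direction numbered 2110 with scaling first and 2352 with a pseudocount of 8. The replicate block, for numbers that do not pair the arrays, gave 0.0385% and 0% (7 and 0 genes, with 2536 at an unadjusted p under 0.05), and all 7 were among the 188. With 1 array left out, which leaves fewer arrays to fit, the shares ran from 0.033% to 0.137% higher in Swiss 5 and from 0% to 0.143% higher in Swiss 22, with 2187 to 2943 genes at an unadjusted p under 0.05. Of the called genes with a log2 difference of at least 1, 5 and 2 in the main analysis, those higher in Swiss 22 numbered 9, 57, 125 and 6 with quantile normalization over 6 arrays, centring, no normalization and the spike covariate, and 0 with scaling first, either other pseudocount, the mean of probe sets and the block. Those higher in Swiss 5 numbered 1 with the larger pseudocount, and 3 to 6 with 1 array left out, against 0 to 4 higher in Swiss 22. Id1 (-0.043) and Grem1 (-0.074) reversed without normalization, where the median of all genes was -0.26. The cause was not tested for any of these changes. Median standard errors were 0.080 log2 units in the main analysis, 0.209 with scaling first and 0.148 with a pseudocount of 8. Signal near background limits what can be said of dim genes, whose differences the pseudocount compresses.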

Other observations

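Probe sets without a gene name also differed. In a fit over all 45037 probe sets that were not controls, limma called 9 of the 9160 unnamed ones higher in Swiss 5 and 6 higher in Swiss 22, against 74 and 85 of the 35877 named ones. Across the 18193 genes, U90926, at 567, 714 and 576 in Swiss 5 and 269, 230.5 and 293 in Swiss 22, had the fourth largest positive difference.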
